A study of Mus musculus with 4 samples.

Results

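The comparison set nuclei of aortic tissue from mice that were given high-fat food together with methoxazolamide (MTZ) against nuclei of aortic tissue from mice without treatment. Its members were all barcodes of these libraries with at least 300 detected genes and at most 10% mitochondrial counts. In the untreated library 22339 of 22413 barcodes passed, and in the library with diet and simultaneous MTZ (MTZ-simultaneous) 19261 of 19335 passed. The comparison therefore held 41600 of the 107709 passing barcodes in the 4 libraries of the series. Mice of all groups had the genotype CA1 knockin ApoE-/-, so the untreated animals carried the knock-in and the loss of ApoE as well. The labels describe MTZ as an inhibitor of CA1. The labels do not state strain, age, sex, dose, time on the diet, time of day of collection, the promoter of the knock-in or the number of animals in a library. The libraries differed in both the diet and the drug, so the parts of diet and drug in any difference cannot be told apart. There was 1 library a side, and every interval below is a 95% counting interval that leaves out the variation between animals and dissections.

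Carbonic anhydrases interconvert carbon dioxide and bicarbonate, and carbonic anhydrase 1, encoded by Car1 in the mouse, is a cytosolic form. Loss of ApoE slows the clearance of lipoprotein remnants and makes mice prone to atherosclerosis, in which macrophages take up lipid and smooth muscle cells change from a contractile to a matrix-producing state. The aorta lies in fat and is covered by serous membrane, so dissected aortic tissue can also hold adipocytes, mesothelium and lymphoid cells. Most cells of the vessel wall run a circadian clock. In it the proteins of Arntl and Clock, or Arntl and Npas2, activate the Per, Cry, Nr1d and Dbp genes. Per and Cry proteins inhibit that complex, and Nr1d proteins repress the Arntl and Npas2 genes.

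Markers of the vessel wall were detected in both libraries, together with markers of surrounding tissue in unequal amounts. Over all member nuclei the smooth muscle myosin gene Myh11 was at 97.3 CPM (UMI counts scaled to a common library total) in untreated and 462 CPM in MTZ-simultaneous, and the endothelial gene Pecam1 was at 788 and 1063 CPM. The brown-fat uncoupling gene Ucp1 was at 270 and 101 CPM, and the mesothelial gene Msln at 10.98 and 30.15 CPM. The kidney proximal tubule gene Slc34a1 was at 0.0145 CPM (1 count) in untreated and 13.2 CPM (500 counts) in MTZ-simultaneous, and a cluster of nuclei with genes of kidney tubule held 1 and 408 nuclei. Median UMI counts per nucleus were 2026 and 1417, and the mitochondrial share of counts lay between 1.61% and 1.93% in the 4 libraries. The pair shared 119 cell barcodes.

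Car1, the mouse gene of the enzyme that the knock-in and the drug concern, was counted in both libraries at similar levels. The gene lies on the minus strand of chromosome 3 (chr3:14766216-14808368, GRCm38). Its level over all member nuclei was 127.5 CPM (interval 124.9 to 130.2) in untreated and 150.8 CPM (146.9 to 154.7) in MTZ-simultaneous. The high-fat library had 86.4 CPM and the library given MTZ after atherosclerosis was established (MTZ-after) had 63.0 CPM. The sources used here do not say whether mouse or human sequence was inserted, and Car1 counts cannot separate the insert from the endogenous gene. Apoe was at 9.50 CPM in untreated and 10.9 CPM in MTZ-simultaneous, and since the labels do not say which part of the gene was disrupted, this level checks nothing.

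Clustering of the 41600 nuclei gave 29 clusters, and 64 after a second pass within clusters that came almost wholly from 1 library. Marker genes put 15 named classes on them, each called by what it resembled. Of these, 9 had at least 200 nuclei in each library and were compared gene by gene. Clusters without a name held 27.7% of untreated nuclei (6177) and 16.3% of MTZ-simultaneous nuclei (3136). Fat, hepatocyte-like and neuron-like classes of surrounding tissue held 15.6% (3486) and 7.88% (1517), a count that leaves out mesothelium. With mesothelial-like nuclei added, these named classes held 20.96% of nuclei in both libraries (4682 and 4037). Clusters without a name are outside this sum, and kidney tubule was not among the marker classes. The sum therefore does not give the whole amount of surrounding tissue in either library.

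Smooth-muscle-like, mesothelial-like and B-cell-like nuclei made up larger shares of the MTZ-simultaneous library, and brown-adipocyte-like nuclei a smaller share. Smooth-muscle-like nuclei, the contractile cells of the media, went from 564 (2.52%) to 2656 (13.8%), a ratio of 5.46 (interval 4.99 to 5.99) with values from 2.31 to 5.00 under 7 other ways of filtering, clustering or counting. Mesothelial-like nuclei, of the serous lining, went from 1196 (5.35%) to 2520 (13.1%), a ratio of 2.44 (2.28 to 2.62) with alternatives from 2.0005 to 2.60. B-cell-like nuclei went from 307 (1.37%) to 783 (4.07%), a ratio of 2.96 (2.59 to 3.39) with alternatives from 1.71, when all 4 libraries were clustered, to 3.09. Brown-adipocyte-like nuclei, of heat-producing fat, went from 3466 (15.5%) to 877 (4.55%), a ratio of 0.293 (0.272 to 0.316), and this ratio moved between 0.0223 and 0.395 under the alternatives.

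The shares of endothelial-like, fibroblast-like and macrophage-like nuclei did not keep a direction when the nuclei were filtered or clustered otherwise. Endothelial-like nuclei held 16.1% (3606) and 15.1% (2908), a ratio of 0.935 with alternatives from 0.557 to 1.15. Fibroblast-like nuclei held 9.41% (2103) and 7.63% (1469), a ratio of 0.810 with alternatives from 0.605 to 1.31. Macrophage-like nuclei held 15.6% (3483) and 18.1% (3487), a ratio of 1.16 with alternatives from 0.527 to 1.73. In the high-fat library, whose nuclei were assigned to these classes by their nearest neighbours, 49.6% of nuclei (18874) were macrophage-like and 1.99% were smooth-muscle-like. T- or NK-like nuclei went from 507 (2.27%) to 371 (1.93%), a ratio of 0.849 (0.740 to 0.972) with alternatives from 0.670 to 0.879. Adipocyte-like nuclei went from 19 (0.0851%) to 502 (2.61%), a ratio of 30.6 that was 1.24 to 11.2 under the alternatives. Pericyte-like nuclei numbered 119 and 6, mast-cell-like nuclei 98 and 10, Schwann-cell-like nuclei 161 and 50, and hepatocyte-like nuclei 1 and 86. The sources used here do not give how much of each dissected piece was aorta, so a share can change with the tissue taken as well as within the vessel wall.

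**Figure D1:**
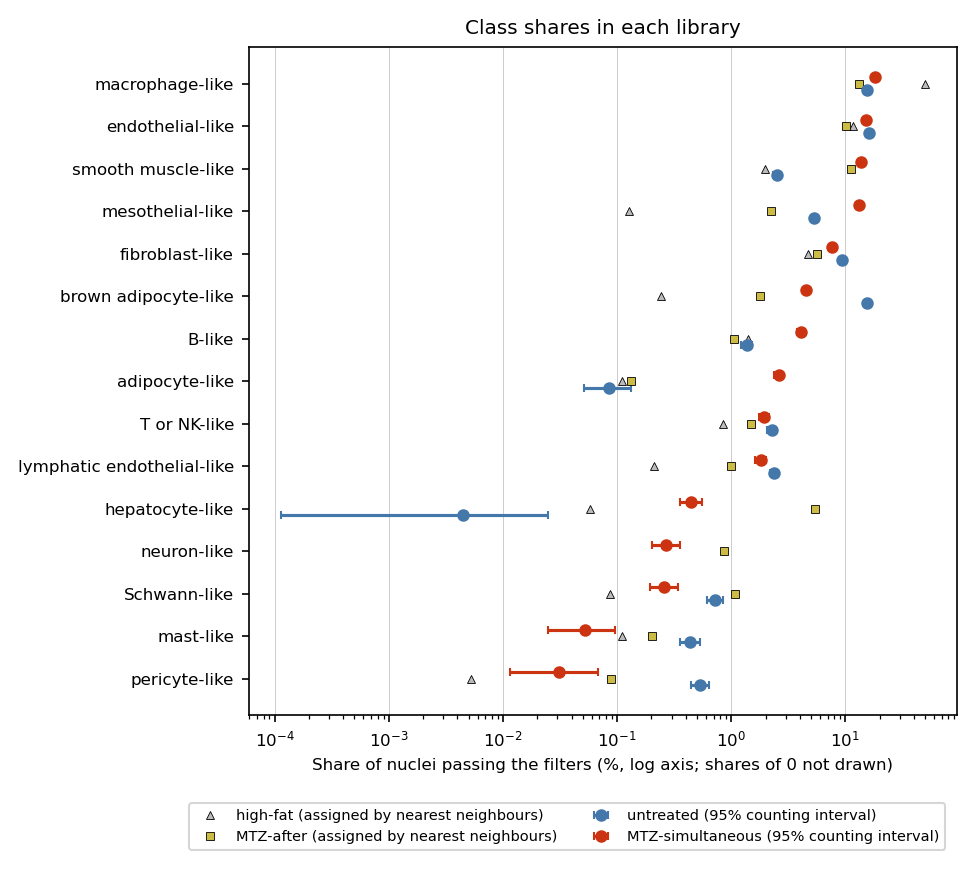
Share of passing nuclei in each named class, in percent on a log axis, with circles and 95% exact binomial counting intervals for untreated and MTZ-simultaneous and marks without intervals for high-fat and MTZ-after, whose nuclei were assigned by nearest neighbours. Smooth-muscle-like nuclei lie at 2.52% in untreated and 13.8% in MTZ-simultaneous, and brown-adipocyte-like nuclei at 15.5% and 4.55%.

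The composition within classes differed too. Smooth-muscle-like nuclei of cluster 12 numbered 361 in untreated and 968 in MTZ-simultaneous, those of cluster 13.1 numbered 126 and 692, and those of cluster 13.2 numbered 77 and 996. Endothelial-like nuclei were divided between cluster 9 (2020 and 1024 nuclei) and cluster 14 (1212 and 1807), among smaller ones. In the macrophage-like class 1 cluster with the genes Vmn2r26, Alox15 and Prg4 held 27 untreated and 699 MTZ-simultaneous nuclei, which is 0.775% and 20.05% of the class. Values within single clusters are therefore given beside those of a class where they differ.

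Clock genes differed between the libraries, most of them in the same direction in every class compared. The activators Arntl, Npas2 and Clock were lower in MTZ-simultaneous in 9 of 9 classes. The output and repressor genes Dbp, Tef, Hlf, Per1, Per2, Per3, Nr1d1, Nr1d2, Cry2 and Ciart were higher in 9 of 9 classes. A gene was called at a CPM ratio of at least 2 or at most 0.5, provided that it had 50 counts or more in the library where it was higher.

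As a list, the 19 clock genes measured in each class included both directions, so their median understates the change. In smooth-muscle-like nuclei 7 were called higher and 3 lower, against a background of 7.37% of 9200 tested genes called higher and 1.0% called lower. In fibroblast-like nuclei 8 were called higher and 3 lower (background 2.58% and 1.58% of 9392 genes), and in endothelial-like nuclei 8 and 3 (3.0% and 1.91% of 11796). Macrophage-like nuclei had 7 and 0 (5.15% and 1.75% of 11804), and mesothelial-like nuclei 6 and 2 (4.6% and 2.46% of 9998). B-cell-like nuclei had 7 and 1 (6.76% and 1.45% of 4840), T- or NK-like nuclei 3 and 2 (2.43% and 3.1% of 3543), lymphatic-endothelial-like nuclei 2 and 2 (1.47% and 3.12% of 4290) and brown-adipocyte-like nuclei 8 and 4 (7.39% and 5.24% of 7858).

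The promoters of 4 of these genes are shown because they carry the motifs that the clock's own factors are known to bind. Each line gives the 250 bases before the start site from the RefSeq-based table of build GRCm38.p6, read 5' to 3' on the gene's strand, with each motif in capitals. The motifs searched on both strands were the E-box CACGTG (bound by Arntl with its partners), the D-box TTANGTAA (bound by Dbp, Tef, Hlf and Nfil3 proteins) and the ROR element TAGGTCA or TGGGTCA (bound by Rora and Nr1d1 proteins). Ciart, a repressor of the Arntl complex, has 3 E-boxes at chr3:95882229-95882478 on the minus strand.
Ciart: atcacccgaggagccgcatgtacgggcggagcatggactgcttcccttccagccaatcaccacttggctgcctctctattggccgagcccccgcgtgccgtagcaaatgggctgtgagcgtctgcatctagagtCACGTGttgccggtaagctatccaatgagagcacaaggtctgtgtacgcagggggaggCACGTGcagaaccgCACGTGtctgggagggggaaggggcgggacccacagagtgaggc
Per3, a period gene, has 2 D-boxes at chr4:151044666-151044915 on the minus strand.
Per3: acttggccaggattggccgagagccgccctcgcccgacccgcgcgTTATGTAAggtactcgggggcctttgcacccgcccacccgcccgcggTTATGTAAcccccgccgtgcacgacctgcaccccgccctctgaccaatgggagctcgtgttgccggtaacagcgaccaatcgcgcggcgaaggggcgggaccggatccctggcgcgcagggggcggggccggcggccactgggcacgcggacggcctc
Tef, a D-box activator, has 1 E-box at chr15:81802423-81802672 on the plus strand.
Tef: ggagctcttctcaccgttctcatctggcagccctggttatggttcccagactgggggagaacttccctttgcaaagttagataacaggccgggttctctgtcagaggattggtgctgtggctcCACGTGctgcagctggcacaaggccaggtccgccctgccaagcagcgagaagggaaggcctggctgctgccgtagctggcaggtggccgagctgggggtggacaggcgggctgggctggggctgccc
Nfil3, a D-box repressor, has 1 ROR element at chr13:52981040-52981289 on the minus strand. The element lies on the strand opposite to the gene's, so the line shows it as TGACCTA.
Nfil3: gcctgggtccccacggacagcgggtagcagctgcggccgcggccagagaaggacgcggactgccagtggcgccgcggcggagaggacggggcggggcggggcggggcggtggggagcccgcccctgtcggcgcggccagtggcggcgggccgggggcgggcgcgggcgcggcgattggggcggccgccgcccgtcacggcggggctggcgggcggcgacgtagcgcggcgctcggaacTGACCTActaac
Of 20 clock genes 16 had a promoter in the table, 5 of them with an E-box, 1 with a D-box and 1 with a ROR element. A gene counted when any of its promoters held the motif, and some genes had more than 1 promoter. The shares over all promoters count each promoter by itself, so the measures are not alike. Among all 32851 promoters of that length an E-box was in 6.02%, a D-box in 2.06%, a ROR element in 5.38% and any of these in 13%. The windows of Arntl, Dbp, Npas2, Clock, Hlf, Nr1d1 and Nr1d2 held none of these letters, and elements farther away were not searched. A match is a description of the sequence and shows no binding.

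Arntl (chr7:113207465-113314126, plus strand), the activator at the centre of the clock, was at 110 CPM in untreated and 19.0 CPM in MTZ-simultaneous in smooth-muscle-like nuclei. It was at 129 and 21.3 CPM in fibroblast-like, 83.8 and 14.9 CPM in endothelial-like and 75.0 and 13.4 CPM in mesothelial-like nuclei. In macrophage-like nuclei it was at 77.1 and 42.0 CPM, the ratio nearest to 1 of the 9 classes. Across classes its ratio ran from 0.116 to 0.545, with 8 of 9 called, and within single clusters from 0.110 to 0.493. Its partner Npas2 was called lower in 7 of 9 classes (ratios 0.107 to 0.803), and Clock in 1 of 9 (0.432 to 0.820). Nfil3, the repressor of D-box genes, was lower in 9 of 9 and called in 4 (0.0900 to 0.522).

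Dbp (chr7:45705088-45710203, plus strand), a D-box activator and a direct target of the Arntl complex, moved the other way. It was at 5.27 CPM in untreated and 63.0 CPM in MTZ-simultaneous in smooth-muscle-like nuclei and at 4.37 and 59.7 CPM in fibroblast-like nuclei. Endothelial-like nuclei had 5.64 and 51.5 CPM, and macrophage-like nuclei 3.19 and 46.1 CPM. B-cell-like nuclei held a single Dbp count in untreated (1.89 CPM) against 47.8 CPM, a ratio of 25.4 (interval 4.39 to 1018). No class of the untreated library reached the lowest level of any class in MTZ-simultaneous.

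The other output genes were higher by smaller factors. Per3 and Tef were called higher in 9 of 9 classes, with ratios from 2.81 to 4.35 and from 2.23 to 3.55. Per2 was called in 6 classes (1.80 to 5.72), Hlf in 6 (1.79 to 13.3), Nr1d1 in 6 (1.80 to 3.48) and Nr1d2 in 3 (1.54 to 2.53). Per1 (1.07 to 5.10), Cry2 (1.19 to 2.18) and Ciart, which had 0 counts in untreated B-cell-like nuclei and ratios of 1.68 to 8.05 in the other 8 classes, were called in 2 each. Cry1, a repressor, was higher in 7 of 9 and called in 0, and Bhlhe40, which represses Arntl targets, was higher in 3 and lower in 6.

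In the libraries with diet alone and with MTZ given later, Arntl and Dbp lay between their levels in this pair, and Per1 lay below both. Over whole libraries Arntl was at 95.9 CPM in untreated, 58.5 CPM in high-fat, 51.1 CPM in MTZ-after and 22.1 CPM in MTZ-simultaneous. Dbp was at 5.30, 11.6, 28.1 and 60.9 CPM in that order, and Per3 at 43.2, 43.0, 63.2 and 129 CPM. Per1 was at 28.5, 21.3, 26.6 and 67.7 CPM, and Nfil3 at 24.9, 9.72, 10.4 and 6.29 CPM. Clock transcripts follow the time of day. The hour of collection is not stated in the labels, and its part in these differences cannot be told apart from diet and drug.

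**Figure D2:**
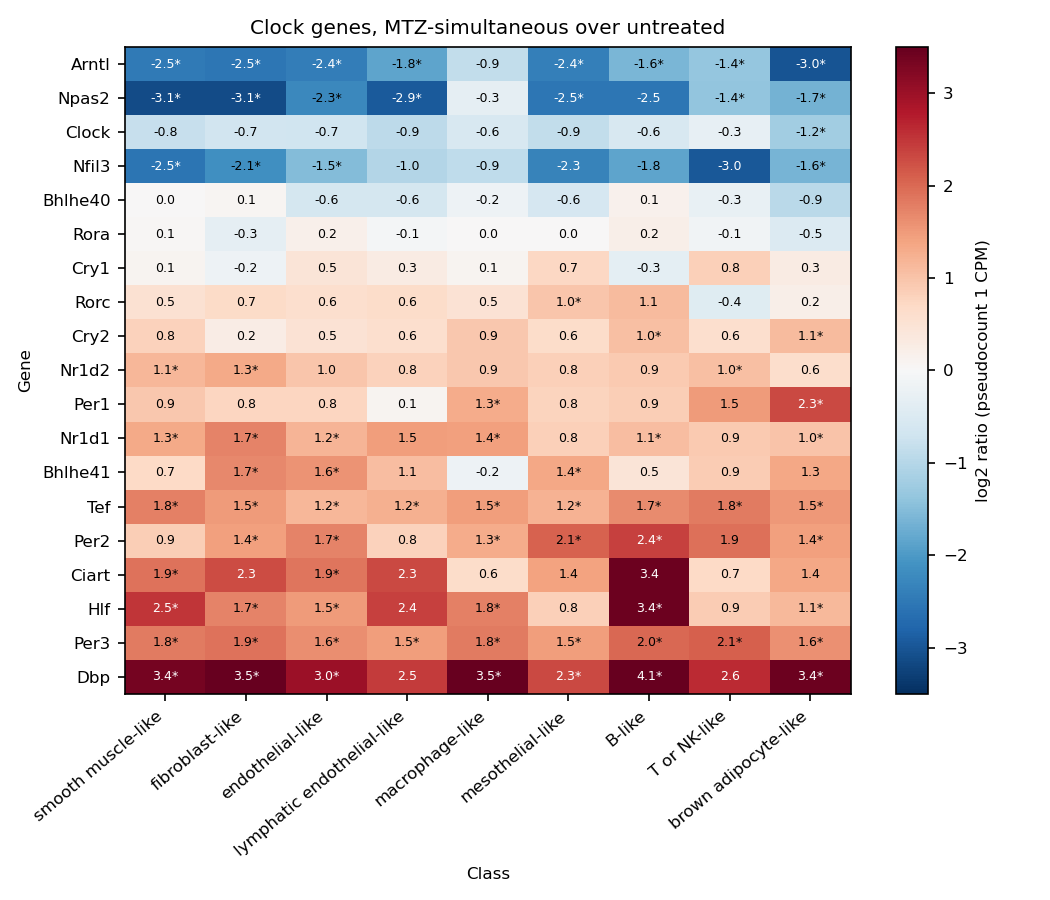
Log2 ratio (pseudocount 1 CPM) of each of 19 clock genes in rows, MTZ-simultaneous over untreated, in the 9 compared classes in columns, with an asterisk where the gene was called and a colour scale that ends short of the highest values. Arntl, Npas2, Clock and Nfil3 are below 0 in 9 of 9 classes, and Dbp, Per3 and Tef are above 0 in 9 of 9.

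**Figure D3:**
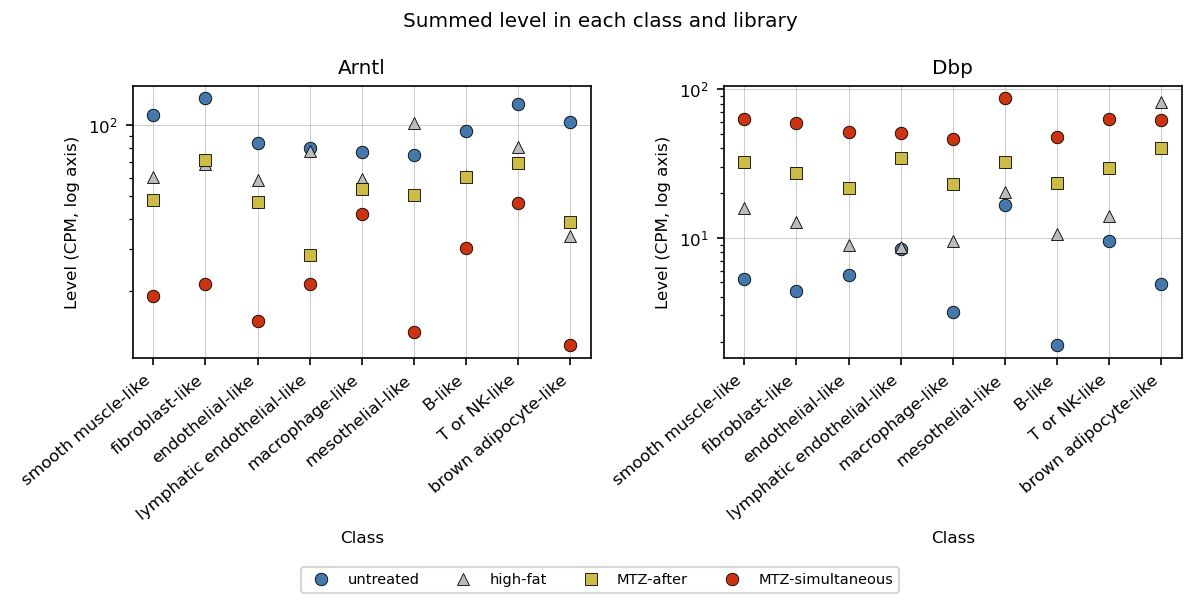
Level of Arntl and of Dbp in CPM on log axes, 1 panel a gene, in each of the 9 compared classes, with 1 point for each of the 4 libraries and no error drawn. Dbp lies between 1.89 and 16.7 CPM in untreated and between 46.1 and 86.9 CPM in MTZ-simultaneous, and in brown-adipocyte-like nuclei the high-fat library lies above both.

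A further set of genes was lower in most or all classes. In all, 33 genes were called higher and 26 lower in at least 6 of the 9 classes. Within single classes 1.47% to 7.39% of tested genes were called higher and 1.0% to 5.24% lower. Cdo1, Fasn, Parm1, Pnpla3 and Ppp1r3b were called lower in 9 of 9. Over the whole libraries Pnpla3, a lipid-droplet enzyme, was at 402 and 41.9 CPM, and Fasn, fatty acid synthase, at 228 and 67.4 CPM. Ppp1r3b, a glycogen-targeting subunit, was at 186 and 17.6 CPM, and Cdo1, cysteine dioxygenase, at 429 and 68.9 CPM. Tshr, the thyrotropin receptor, was at 132 and 10.2 CPM and was called in 7 classes. The genes called lower in at least 7 classes were ranked by untreated level among the 9 compared classes. All but Arntl and Npas2 were highest in brown-adipocyte-like nuclei, and these were highest in fibroblast-like nuclei. Other classes and clusters without a name were outside this ranking, and some held higher levels, as for Tshr. Its 44.8 CPM in untreated lymphatic-endothelial-like nuclei was 0.0503 of the highest level in any class or unnamed cluster, against 166 CPM in brown-adipocyte-like nuclei. The summed level of 9 brown-adipocyte markers in the other 8 classes ran from 836 to 1737 CPM in untreated and from 303 to 948 CPM in MTZ-simultaneous, and its part in the differences of lipid genes outside brown adipocytes was not tested.

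The genes called higher in most classes included contractile genes of smooth muscle and secreted proteins. Myh11 and Tagln were called higher in 8 of 9 classes and Acta2 in 7, in each case in classes other than the smooth-muscle-like one. The summed level of 10 smooth-muscle markers in the 8 other classes was 213 to 537 CPM in untreated and 684 to 1183 CPM in MTZ-simultaneous, with all 10 higher in each class. Within smooth-muscle-like nuclei the same sum was 8050 and 5944 CPM. The part of free RNA in the contractile genes of other classes was not tested. Slpi, a secreted protease inhibitor, went from 4.29 to 58.2 CPM over the whole libraries and was called in 7 classes, and Retnla, a secreted protein of alternatively activated macrophages, went from 5.20 to 45.9 CPM and was called in 6.

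In smooth-muscle-like nuclei 8.37% of 9200 tested genes were called, 678 higher and 92 lower, on 1329088 and 5426550 counts. After scaling by TMM, which shifted all genes by a median of -0.10 (log2), 523 were higher and 119 lower. Of the calls 181 higher and 31 lower held under another seed, another resolution, centring of the libraries and removal of likely doublets. The genes that also reached 25% of the highest level in any class were led upward by Slpi, Dbp, Hlf, Fbxo21 and Cdca7l. Those lower included Npas2, Kcnip4, Sphkap and Pdzrn4.

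Slpi in smooth-muscle-like nuclei had 3 counts (2.26 CPM) in untreated and 211 (38.9 CPM) in MTZ-simultaneous, a ratio of 17.2 (interval 5.81 to 84.2) that was 9.26 to 26.0 under other filters and clusterings. It was also at 108 CPM in MTZ-simultaneous macrophage-like nuclei, and the part of free RNA in its level was not tested. Fbxo21, a ubiquitin ligase subunit, went from 9.03 to 56.0 CPM, a ratio of 6.20 that was 2.05 with centred libraries, 2.70 with 4 libraries clustered and 3.06 under the stricter filter. Fbxo21 is also among the leading genes of an adipocyte-like cluster. Cdca7l went from 4 counts (3.01 CPM) to 120 counts (22.1 CPM), a ratio of 7.35. Among the genes called lower, Kcnip4, a potassium channel partner, went from 427 to 62.7 CPM (ratio 0.147). Pdzrn4, a ubiquitin ligase family member, went from 277 to 46.1 CPM (0.166), and Sphkap, an anchor of protein kinase A, from 102 to 14.2 CPM (0.140). With centred libraries these ratios were nearer to 1, at 0.312 for Kcnip4, 0.246 for Pdzrn4 and 0.269 for Sphkap.

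Most genes of the contractile apparatus were lower in smooth-muscle-like nuclei of MTZ-simultaneous by less than 2-fold. Of them 1 was called, beside 1.0% of 9200 tested genes called lower in the class. Of 20 measured genes of the contraction list 2 were higher and 18 lower, with a median of -0.34 against 0.16 over all genes on the log2 scale (pseudocount 1 CPM). Myh11 was at 1746 and 1647 CPM, Acta2, smooth muscle actin, at 1119 and 1054 CPM, and Tagln, an actin-binding protein, at 283 and 318 CPM. The called member, Myocd, a transcriptional coactivator for contractile genes, was at 776 and 372 CPM (ratio 0.479, interval 0.445 to 0.517). Within cluster 12 alone its ratio was 0.639 and the median of the list was 0.11, so both depended on the clusters that make up the class.

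Genes of the modulated smooth muscle state were slightly above all genes in the same nuclei. Of 17 measured 14 were higher and 3 lower, with a median of 0.41. Dcn, a collagen-binding proteoglycan, went from 161 to 323 CPM (ratio 2.004), and Ly6a, a marker of modulated cells, from 41.4 to 89.6 CPM (2.16). Klf4, a regulator of the switch, went from 147 to 68.6 CPM (0.467). Spp1, osteopontin, was at 387 and 513 CPM (1.33), which was below the fold used for calls. Among matrix genes the fibulins Fbln1 (12.8 and 31.1 CPM) and Fbln2 (58.7 and 120 CPM) were called higher, as was the growth factor Bmp4 (45.9 and 93.3 CPM), and the basement membrane chain Col4a6 (512 and 232 CPM) was called lower. In the same nuclei the summed level of 10 fibroblast markers was 948 and 1390 CPM (9 of 10 higher, 2 called) and that of 9 mesothelial markers 135 and 331 CPM (9 of 9 higher, 6 called), and their part in the modulation and matrix genes was not tested.

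In fibroblast-like nuclei 4.15% of 9392 tested genes were called, 242 higher and 148 lower on 5726064 and 3048210 counts. With TMM scaling, which moved the median of all genes by -0.16, the split was 151 higher and 248 lower. Calls held under the 4 other clusterings named above for 135 higher and 54 lower genes. The highest of them were Dbp, Saa3, Retnla, Slpi and Per3, and the lowest were Npas2, Errfi1, Arntl, Fosb and Nr4a3.

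Saa3, an acute-phase serum amyloid, was at 1.57 CPM in untreated and 24.3 CPM in MTZ-simultaneous fibroblast-like nuclei, a ratio of 15.4 (interval 7.71 to 35.1). It was also at 23.0 CPM in macrophage-like nuclei of the latter library. Retnla went from 3.49 to 34.8 CPM (ratio 9.96, and 7.98 to 16.1 under other filters and clusterings). It was at 138 CPM in mesothelial-like nuclei of MTZ-simultaneous, and the part of free RNA in its fibroblast level was not tested. Errfi1, a feedback inhibitor of the EGF receptor, went from 1221 to 233 CPM (0.191), with 194 CPM in high-fat and 257 CPM in MTZ-after, so the untreated library stood apart from the other three for it. The calcification inhibitor Mgp went from 447 to 905 CPM (2.03), and the median of the list of fibrillar collagens and elastic fibres was 0.04, below the 0.15 of all genes.

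Immediate early genes, which respond quickly to stimulation and to tissue handling, had medians below 0 in the 8 classes other than the brown-adipocyte-like one. In fibroblast-like nuclei 1 of 17 was higher and 16 lower, with 8 called lower and a median of -0.98. Nr4a1, a nuclear receptor, went from 279 to 69.6 CPM (ratio 0.249), and Fos from 310 to 106 CPM (0.342). In endothelial-like nuclei 16 of 17 were lower and 10 called, with a median of -1.05. In lymphatic-endothelial-like nuclei 16 of 16 were lower and 8 called, with a median of -1.02, among them Fosb at 98.6 and 18.3 CPM. Macrophage-like nuclei had a median of -0.17 with 0 called. The share of all tested genes called lower was 1.58% in fibroblast-like, 1.91% in endothelial-like, 3.12% in lymphatic-endothelial-like and 1.75% in macrophage-like nuclei. Brown-adipocyte-like nuclei had values in the other direction, with 15 higher and 2 lower, a median of 0.42 and Nr4a1 at 107 and 262 CPM. These nuclei came from different clusters in the 2 libraries. TMM scaling moved all genes of that class by -0.40, close to the size of that median. The labels do not say how long tissue stood before lysis, and its part was not tested.

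Endothelial-like nuclei had 4.91% of 11796 tested genes called, 354 higher and 225 lower, on 11697179 and 8575345 counts. TMM scaling, which moved the median of all genes by -0.16, changed the split to 231 and 288. Calls that held under the other clusterings numbered 108 higher and 100 lower. Their leading genes were Dbp, Tpm2, Per2, Per3 and Hlf upward, and Cyp1a1, Mmp15, Hspa1a, Arntl and Slc1a1 downward. Tpm2 belongs to the list of smooth muscle contraction genes. Its 23.6 CPM in MTZ-simultaneous was 0.300 of the highest level in any class or unnamed cluster of that library, and the part of free RNA was not tested.

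Klf2 (chr8:72319033-72321656, plus strand), the transcription factor that laminar flow induces in endothelium, was at 770 CPM in untreated and 229 CPM in MTZ-simultaneous endothelial-like nuclei. The ratio was 0.298 (interval 0.283 to 0.313) over the class, 0.343 within cluster 9 and 0.266 within cluster 14. High-fat had 277 CPM and MTZ-after 332 CPM, again with untreated apart from the other three. Klf4, its relative, went from 328 to 115 CPM (0.350), with 113 and 166 CPM in high-fat and MTZ-after. Of 16 measured flow-response genes 4 were higher and 12 lower, with 2 called (background 1.91% of 11796 genes lower) and a median of -0.22. Klf2 and Klf4 are also immediate early genes, and Klf2 was called lower in fibroblast-like nuclei too (0.469), whereas it was at 0.863 in macrophage-like nuclei.

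Among the other endothelial genes called lower were Cyp1a1, Mmp15 and inducible heat shock genes. Cyp1a1, an enzyme induced through the aryl hydrocarbon receptor, went from 149 counts (12.7 CPM) to 9 counts (1.05 CPM), a ratio of 0.0824. Mmp15, a membrane metalloproteinase, went from 55 counts (4.70 CPM) to 2 counts (0.233 CPM), a ratio of 0.0496 (interval 0.00586 to 0.188, and up to 0.0881 under other filters and clusterings). Of 12 heat shock genes 10 were lower and 4 called (background 1.91% of 11796 genes lower), with a median of -0.46. Hspa1a, an inducible chaperone, went from 38.6 to 5.48 CPM (0.142), and its neighbour Hspa1b, whose reads the counting may split with it, had a ratio of 0.208. Adhesion and activation genes of endothelium had a median of -0.09.

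**Figure D4:**
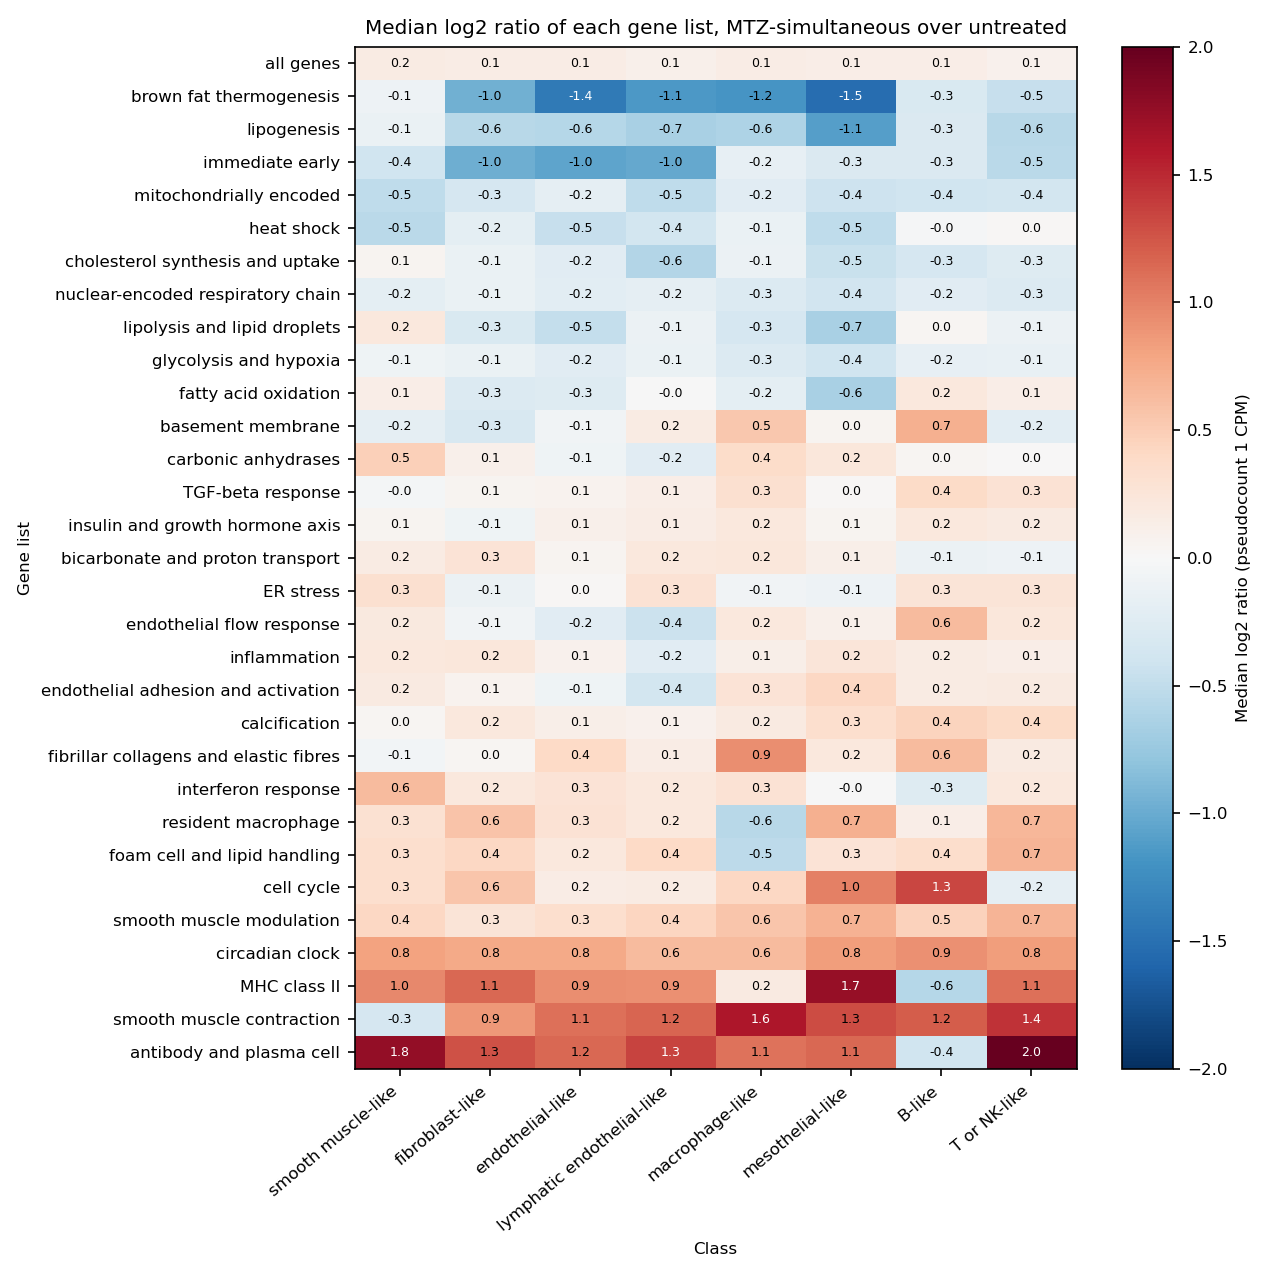
Median log2 ratio of each gene list in rows, MTZ-simultaneous over untreated with a pseudocount of 1 CPM, in 8 of the compared classes in columns. Immediate early genes run from -1.05 to -0.17, brown-fat genes from -1.52 to -0.11 and clock genes from 0.63 to 0.91.

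In macrophage-like nuclei 6.9% of 11804 tested genes were called, 608 higher and 207 lower, on 11296751 and 6858226 counts. TMM scaling, which moved the median of all genes by -0.18, gave 396 and 318, and 403 and 90 held under the other clusterings. The cluster with Vmn2r26 and Alox15 put its own genes at the top of this list, so those are the make-up of the class and are not given as changes. Cluster 2, with 1500 and 2026 nuclei, gave a comparison within 1 cluster.

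Fibronectin (Fn1), a matrix glycoprotein, was at 407 and 1706 CPM in macrophage-like nuclei, a ratio of 4.19 that was 2.91 within cluster 2 (322 and 937 CPM) and 2.07 within cluster 16. Cxcl2, a neutrophil chemokine, went from 7.17 to 24.3 CPM (3.40), but its ratio was 0.716 when all 4 libraries were clustered together. Il1b, an inflammatory cytokine, went from 60.4 to 26.8 CPM (0.444). The chaperone Hsph1 went from 98.5 to 29.9 CPM (0.303, and 0.319 in cluster 2), and Tenm4, an adhesion protein, from 498 to 175 CPM (0.351, 0.303 in cluster 2, and 0.527 with 4 libraries clustered). Fn1, Cxcl2 and Il1b were named after their values were seen.

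Genes of lipid-laden and of resident macrophages were lower over the class, and the first group was not lower within cluster 2. Of 20 foam cell and lipid handling genes 2 were higher and 18 lower, with 3 called (background 1.75% of 11804 lower) and a median of -0.52. The called ones were the fatty acid binding protein Fabp5 (ratio 0.396), the macrophage-secreted Cd5l (0.432) and the lysosomal protease Ctsd (0.461). Within cluster 2 the median of that list was 0.20 and these ratios were 1.23, 1.11 and 1.39. The ferritin chain Fth1 went from 1242 to 378 CPM over the class (0.304) and was at 347 and 378 CPM within cluster 2. Resident macrophage genes had a median of -0.56 over the class and -0.54 within cluster 16. Cd163, the haemoglobin scavenger receptor, went from 52.9 to 25.1 CPM (0.475, and 0.596 in cluster 16) and the lectin Mgl2 from 22.0 to 8.89 CPM (0.404).

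Mesothelial-like nuclei had 7.06% of 9998 tested genes called, 460 higher and 246 lower, on 3294679 and 4167987 counts. TMM scaling, which moved the median of all genes by -0.13, gave 341 higher and 324 lower. Retnla went from 10 counts (3.04 CPM) to 577 counts (138 CPM), a ratio of 45.6 (interval 24.6 to 95.6), and within cluster 17, which held 897 and 2378 of the nuclei, the ratio was 91.4. It was 17.01 under the stricter filter and 22.5 at resolution 2, both below that interval. The level of 138 CPM was the highest for Retnla among the compared classes in MTZ-simultaneous. Adamts19, a secreted metalloproteinase, went from 4.55 to 35.0 CPM (7.69). Ppp1r3b went from 111 to 10.8 CPM (0.0972) and Pnpla3 from 269 to 34.8 CPM (0.129). Fn1 went from 266 to 869 CPM (3.27).

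Fatty acid synthesis genes were lower in the same mesothelial-like nuclei. Of 16 genes 1 was higher and 15 lower, 10 of them called, with a median of -1.10 against 0.14 for all genes. In this class 2.46% of 9998 tested genes were called lower. Acaca, which makes malonyl-CoA for the pathway, went from 1718 to 380 CPM (ratio 0.221). The 15 measured brown-fat genes were all lower, with a median of -1.52, beside the lower summed level of brown-adipocyte markers given above. Slc4a4, a sodium bicarbonate cotransporter, went from 2225 to 1044 CPM (0.469), and it was also called lower in macrophage-like (0.398) and lymphatic-endothelial-like nuclei (0.464). Its 1026 CPM in untreated lymphatic-endothelial-like nuclei was 0.215 of the highest level in any class or unnamed cluster of that library. The part of free RNA in its level was not tested.

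**Figure D5:**
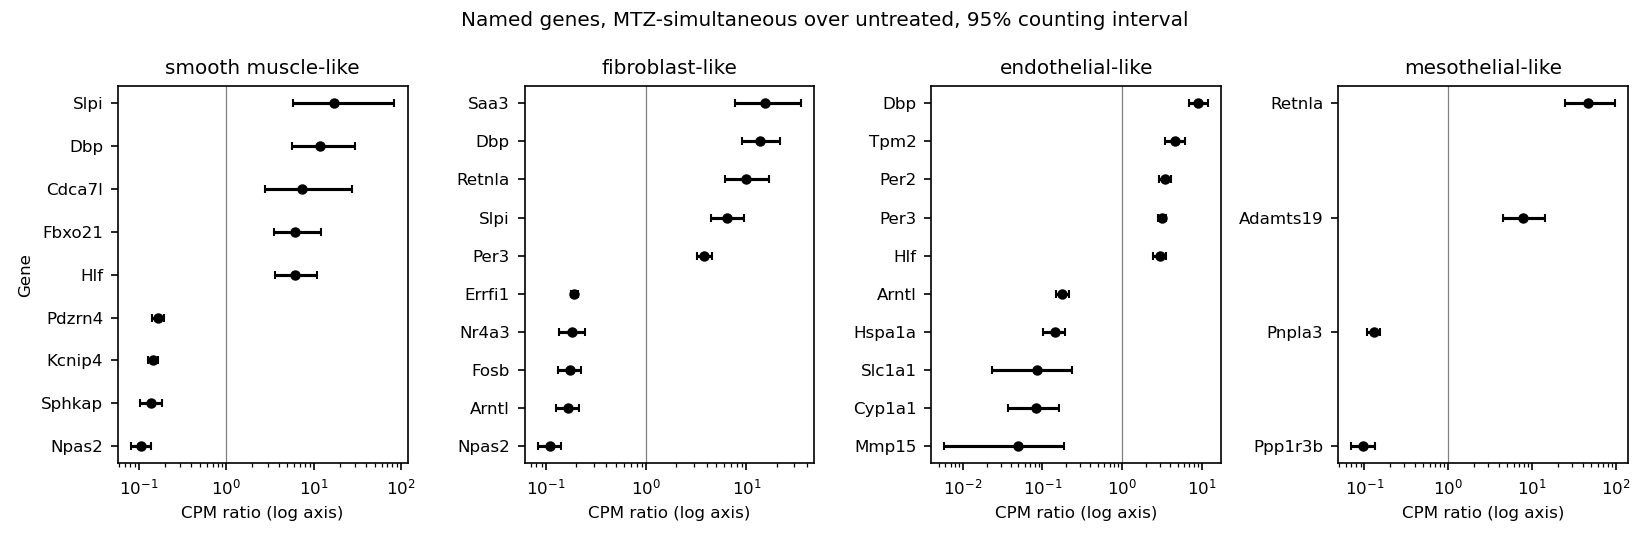
CPM ratio, MTZ-simultaneous over untreated on a log axis with 95% counting intervals, of genes named by rule in the smooth-muscle-like, fibroblast-like, endothelial-like and mesothelial-like classes. Retnla in mesothelial-like nuclei lies at 45.6 and Ppp1r3b at 0.0972.

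MHC class II genes, which present antigen to T cells, were higher in most classes other than the antigen-presenting ones. The median was 1.74 in mesothelial-like nuclei with 5 of 9 called, 1.14 in fibroblast-like with 4 of 9, 0.96 in smooth-muscle-like with 4 of 9 and 0.93 in endothelial-like with 4 of 9. Of all tested genes 4.6%, 2.58%, 7.37% and 3.0% were called higher in these classes, in that order. Cd74, the class II invariant chain, went from 27.9 to 124 CPM in mesothelial-like nuclei. In macrophage-like nuclei the median was 0.18 with 1 called, and in B-cell-like nuclei it was -0.57 with 0 of 10 higher. The summed level of 8 B-cell markers in the other classes ran from 34.4 to 151 CPM in untreated and from 80.9 to 291 CPM in MTZ-simultaneous. That of 11 macrophage markers in other classes ran from 178 to 732 CPM and from 351 to 758 CPM, and the part of either in the class II genes was not tested.

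Carbonic anhydrases as a list were called at about the rate of all genes. Over 8 classes, with the brown-adipocyte-like one left out, 72 gene and class pairs of the list were measured, 2 of which were called higher (2.78%) and 1 lower (1.39%), against 2.44% and 1.07% of the 115597 pairs over all genes. Car3, a form of fat and muscle, was higher in smooth-muscle-like (341 and 782 CPM) and B-cell-like nuclei (247 and 612 CPM). It is also a leading gene of the adipocyte-like clusters, and the summed level of 8 adipocyte markers was 1253 and 1646 CPM in smooth-muscle-like nuclei (7 of 8 higher) and 1582 and 1478 CPM in B-cell-like nuclei (3 of 8 higher); their part in Car3 was not tested. Car4, a membrane form of capillary endothelium, was lower in endothelial-like nuclei (5.13 and 1.87 CPM). Car1 itself was not called in any of these 8 classes, with ratios from 0.788 in lymphatic-endothelial-like to 1.26 in macrophage-like nuclei. Among 130 measured pairs of bicarbonate and proton transport genes 2 were called higher (1.54%) and 7 lower (5.38%), beside the same 2.44% and 1.07%.

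Brown-adipocyte-like nuclei came from different clusters in the 2 libraries, and their values carry that limit. Of the 3466 untreated and 877 MTZ-simultaneous nuclei, cluster 3.3 held 18 and 630, and cluster 3.2 held 4 and 179. In the class 12.6% of 7858 tested genes were called, 581 higher and 412 lower. TMM scaling, which moved the median of all genes by -0.40, turned the split to 234 and 1003. Only 29 higher and 105 lower calls held under the other clusterings. Car3 went from 413 to 1540 CPM (ratio 3.73), Car1 from 77.0 to 185 CPM (2.41) and the insulin receptor substrate Irs2 from 40.9 to 212 CPM (5.18). Hephl1, a ferroxidase, went from 466 counts (29.1 CPM) to 0 counts, a ratio of at most 0.0677 against a floor of 3 counts, but 0.281 with another seed. Ucp1 was at 583 and 850 CPM (1.46), below the fold used for calls, while Dio2, which activates thyroid hormone, went from 64.9 to 167 CPM and the beta-3 adrenergic receptor gene Adrb3 from 521 to 246 CPM.

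Lipid synthesis genes of the brown-adipocyte-like nuclei were mixed, and cholesterol genes were mostly lower, with the same limit of different clusters in the 2 libraries. Acaca went from 5771 to 1429 CPM (ratio 0.248) and Fasn from 434 to 190 CPM (0.437), whereas Dgat2, which completes triglyceride synthesis, went from 199 to 509 CPM (2.56). Of 18 genes of cholesterol synthesis and uptake 16 were lower and 8 called, with a median of -0.83 against 0.26 for all genes. In this class 5.24% of 7858 tested genes were called lower. Insig1, the sterol sensor, went from 148 to 29.6 CPM (0.199).

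B-cell-like nuclei had 8.2% of 4840 tested genes called, 327 higher and 70 lower, with Slpi at 1 and 63 counts. The heavy chain gene Ighm was at 494 and 323 CPM, the kinase gene Stk17b at 662 and 143 CPM (ratio 0.216) and the glutamate receptor gene Grm8 at 160 and 11.4 CPM (0.0711). T- or NK-like nuclei had 5.53% of 3543 genes called, 86 higher and 110 lower, led by the actin-binding gene Tagln (21.6 and 156 CPM) and the kinesin gene Kif26b (40.7 and 174 CPM) upward, the latter with a ratio of 4.28 that was 2.35 under the stricter filter. The ligand gene Eda (201 and 47.1 CPM) and the growth factor receptor gene Egfr (245 and 63.5 CPM) led downward, the latter with a ratio of 0.259 that was 0.441 with centred libraries. Tagln, Kif26b, Eda and Egfr each had a higher level in another class or cluster of the library where they were higher. For Tagln the smooth-muscle-like nuclei of MTZ-simultaneous held 318 CPM. The part of free RNA in these T- or NK-like levels was not tested. With TMM scaling the splits were 276 and 92 in B-cell-like and 56 and 161 in T- or NK-like nuclei.

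Lymphatic-endothelial-like nuclei had 4.59% of 4290 tested genes called, 63 higher and 134 lower, and 44 and 212 with TMM scaling. Hs3st4, a heparan sulfate sulfotransferase, went from 9 counts (6.83 CPM) to 166 counts (253 CPM), a ratio of 37.1 (interval 19.1 to 82.6). Tyr, the tyrosinase of pigment cells, went from 151 counts (115 CPM) to 4 counts (6.11 CPM), a ratio of 0.0533. Under other filters and clusterings the ratio of Hs3st4 was 30.8 to 63.9 and that of Tyr 0.0486 to 0.143. In the other 8 compared classes the highest level of Hs3st4 was 18.2 CPM and that of Tyr 2.39 CPM.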

How the data were processed

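Nuclei were isolated from aortic tissue and sequenced as 10x Genomics libraries, per the labels' protocols. For each library the authors deposited a filtered matrix of UMI counts (whole numbers), made with Cell Ranger 7.0.1 per the file headers. STAR and mm10 are named in the submitters' processing notes. The sources used here do not state whether introns were counted. Positions of genes are those of the GRCm38 annotation, and promoters those of the RefSeq table of GRCm38.p6.

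Both libraries were clustered together without integration (scanpy 1.11.5, 2000 variable genes by Pearson residuals, 30 components, 20 neighbours, Leiden resolution 1). Clusters of at least 1000 nuclei with at least 90% from 1 library were clustered again at resolution 0.5, which was decided after the data were seen. Names came from markers of 26 classes, of which a cluster needed 3 or more at 2-fold or higher. Scrublet's own threshold marked 0.0% and 0.00519% of nuclei and was taken as failed. Doublets were therefore kept, and removal of the highest 8% of scores (1567 and 1413 nuclei) was an alternative. Nuclei of the other libraries took the class of their 20 nearest neighbours.

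Counts were summed by library and class and scaled to CPM. Ratios carry exact conditional intervals, levels exact Poisson and shares exact Clopper-Pearson intervals, all at 95%. Ratios against 0 counts used a floor of 3. List medians left out members with fewer than 10 counts in the pair of libraries. With 1 library a side no test of the treatment was possible. The steps were tested on simulated data. TMM factors came from edgeR 4.0.16.

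Named genes were the called genes that kept their call under another seed, resolution 2, centring and doublet removal and reached 25% of the highest level in any class. The 5 highest and 5 lowest by the interval bound nearest to 1 were taken in the smooth-muscle-like, fibroblast-like, endothelial-like and macrophage-like classes, and 2 each elsewhere. Up to 4 called members of each of 31 lists and Car1 and Apoe were added. Mitochondrial, ribosomal, haemoglobin, immunoglobulin and sex-linked genes and unnamed gene models were left out. A few genes that the rule or the lists gave are not reported here. Other genes in the text were named after their values were seen. The comparison and its lists were chosen with earlier results of these data known.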

Additional observations from a re-analysis of the deposited data

How the results depend on the processing

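With 1 library a side, animals, dissection, time of collection, diet and drug cannot be told apart, and depth (37816517 to 69042349 counts) limits only counting error. No paired analysis was possible because each group had 1 library.

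Of 66 alternative values of class shares 21 moved by less than counting error, 39 by more and 6 reversed. Ratios of shares are given in the order another seed, resolution 2, each library centred, doublets removed, at least 500 genes with at most 5% mitochondrial counts, all 4 libraries clustered, and surrounding tissue left out. For endothelial-like nuclei (0.935) they were 0.872, 0.557, 1.08, 1.07, 1.15, 0.829 and 0.857. For macrophage-like nuclei (1.16) they were 1.32, 1.73, 1.05, within counting error, 1.48, 0.527 and 1.06. For the next 4 classes only those that moved are given. Fibroblast-like nuclei (0.810) had 1.22 with another seed, 1.31 without doublets, 0.605 with the stricter filter and 0.742 without surrounding tissue. Brown-adipocyte-like nuclei (0.293) had 0.0223, 0.362, 0.199, 0.0264, 0.395 and 0.0592 under the first 6. Smooth-muscle-like nuclei (5.46) had 4.13, 4.95, 2.31, 3.74, 4.90 and 3.47 under the same 6. Mesothelial-like nuclei (2.44) had 2.27 with another seed, 2.17 centred, 2.01 without doublets, 2.0005 with 4 libraries and 2.24 without surrounding tissue. The remaining classes ranged from 1.71 to 3.09 (B-cell-like, 2.96), 0.670 to 0.879 (T- or NK-like, 0.849), 0.262 to 0.913 (lymphatic-endothelial-like, 0.759) and 1.24 to 11.2 (adipocyte-like, 30.6).

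Of 194 alternative counts of called genes 120 stayed within 1.5 times. With a minimum of 200 counts, fewer genes could be called: higher and lower were 135 and 37 in smooth-muscle-like, 39 and 80 in fibroblast-like, 77 and 124 in endothelial-like, 226 and 117 in macrophage-like, 107 and 147 in mesothelial-like and 109 and 211 in brown-adipocyte-like nuclei. With no minimum they were 1747 and 5323, 3694 and 757, 3829 and 1846, 4231 and 790, and 3038 and 2462 in the first 5, and 9270 higher in brown-adipocyte-like nuclei. TMM gave 234 and 1003 in brown-adipocyte-like nuclei, 231 higher in endothelial-like, 151 and 248 in fibroblast-like and 396 and 318 in macrophage-like nuclei. Another seed gave 232 and 1076 in brown-adipocyte-like and 867 and 303 in fibroblast-like nuclei, and resolution 2 gave 174 higher in endothelial-like nuclei. Centring gave 363 higher in brown-adipocyte-like and 219 lower in smooth-muscle-like nuclei. Without doublets 125 and 987 were called in brown-adipocyte-like nuclei, 717 higher in fibroblast-like and 132 lower in endothelial-like nuclei. The stricter filter gave 129 lower in endothelial-like and 140 lower in smooth-muscle-like nuclei. With 4 libraries clustered the counts were 179 and 688 in brown-adipocyte-like nuclei, 152 higher in macrophage-like, 388 higher in smooth-muscle-like and 120 lower in endothelial-like nuclei. Within single clusters they were 115 and 111 in endothelial cluster 9, 226 higher in macrophage cluster 16, 341 lower in macrophage cluster 2 and 306 higher in smooth muscle cluster 12.

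Of 2303 alternative list medians 1 reversed: cell cycle genes in fibroblast-like nuclei went from 0.56 to -0.077 with 4 libraries clustered. Of 3240 alternative ratios of single genes 526 lost the call and 2 reversed with 4 libraries clustered, Cxcl2 (0.716) and Timd4 (0.562) in macrophage-like nuclei. The cause was not tested for any of these.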

Other observations

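Genes of cell division were higher in several classes, with few calls. Of 20 measured cell cycle genes 20 were higher in fibroblast-like nuclei (median 0.56, 1 called) and 19 in macrophage-like nuclei (median 0.41, 1 called), and 16 of 17 were higher in mesothelial-like nuclei (median 1.01, 1 called). Most of these genes had few counts, and the fibroblast median reversed when 4 libraries were clustered together. Interferon-induced genes were higher for 14 of 15 in smooth-muscle-like nuclei (median 0.63, 1 called) and 13 of 15 in macrophage-like nuclei (median 0.29, 2 called), but for 7 of 15 in mesothelial-like nuclei (median -0.01). Over 8 classes 2.34% of cell cycle pairs and 4.5% of interferon pairs of gene and class were called higher, beside 2.44% over all genes. Nuclear-encoded respiratory chain genes had medians between -0.38 and -0.13 in 8 classes, with 0 of 184 gene and class pairs called.

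Il1rapl1, Lars2 and Taco1 were called higher in 8 of the 9 classes and Cmss1 in 7. Among the compared classes Il1rapl1 was highest in mesothelial-like nuclei, at 1396 and 1522 CPM, where it was not called. In the other 8 it ran from 7.18 to 82.0 CPM in untreated and from 55.0 to 201 CPM in MTZ-simultaneous. The part of free RNA in those calls was not tested. Over 8 classes 19 of 70 gene and class pairs of MHC class II were called higher (27.1%) and 0 lower, and 10 of 48 pairs of antibody and plasma cell genes (20.8%) were called higher and 0 lower, beside 2.44% higher and 1.07% lower over all genes. The summed levels of B-cell and macrophage markers given above moved with these, and their part was not tested.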
